A study of Mus musculus with 8 samples.

Results

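The response of wild-type peritoneal macrophages to interferon γ (IFNγ) was measured in 4 of the 8 samples of the series, all from C57BL/6 mice with the Fc receptor γ chain intact. Peritoneal macrophages of naive mice were plated overnight in RPMI with 10% serum and 15% of an L929-conditioned supernatant, which supplies M-CSF, the growth factor of macrophages. Cells that did not adhere were discarded, and 2 samples were left unstimulated while 2 received recombinant IFNγ at 10 ng/ml for 6 h. The 4 samples that lack the γ chain were not used. Each sample was 1 Illumina MouseRef-8 v2.0 bead array, and of its 25697 probes the 23978 with a gene symbol were described. They represent 16593 genes, each through its brightest probe. The labels do not say whether the 2 samples of a group came from separate mice or wells, so the spread behind each p-value is that between the samples at hand and may be technical.

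IFNγ, made by T cells and natural killer cells, binds a receptor of the chains IFNGR1 and IFNGR2 and activates the kinases JAK1 and JAK2. Signalling from these kinases acts through the gamma-activated site (GAS) in promoters and turns on a first set of genes, among them the transcription factor gene Irf1. IRF factors then act on a second promoter element, the interferon-stimulated response element (ISRE). In macrophages the outcome is known as classical activation, with more antigen presentation, T cell chemokines and defence against intracellular microbes.

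The deposited values are intensities on a linear scale, already normalised between arrays, with array medians between 102.98 and 103.02. Across probes, which are not independent replicates, log2 values correlated with r = 0.996 between the unstimulated and 0.9972 between the IFNγ replicates, and between 0.9754 and 0.9765 across the groups. The median probe of an array is taken as the lower end of the scale. For a gene below it on both arrays of a group, the fold is a lower bound, written "at least". Arrays have no read depth, and their number limits the precision. In the sentences on single genes, values are deposited intensities of replicate 1 and replicate 2, and changes are differences of mean log2 intensity with IFNγ minus without, with 2 samples in each group.

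Of the 23978 probes with a symbol limma called 2394 (9.98%). Of the 16593 genes, it called 823 higher with IFNγ (4.96%) and 1088 lower (6.56%) at an adjusted p below 0.05. Rises were larger than falls. Among genes called, the median log2 change was 0.57 for those higher and -0.41 for those lower, 196 genes rose at least 2-fold (1.18%) and 57 fell at least 2-fold (0.344%), and 12 rose by a log2 of 3 or more while 0 fell by as much. The median over all genes was -0.007. Among the 10118 genes above the array median on some array, 8.13% were called higher and 10.8% lower. The counts of the gene lists below are to be read beside these shares. Counts near these shares are no result about the list. Among them are those of iron, cell cycle, unfolded protein, myeloid transcription factor and mitochondrial ribosomal genes. So are the counts of standard proteasome and of immediate early and KLF genes, and the rises of actin genes. Of the genes called higher, 35 lay under the array median on both unstimulated arrays, and of those called lower, 12 lay under it on both IFNγ arrays. Leaving out 1 array leaves its group with 1 sample, which is then assumed to vary like the other group. A gene's own spread in such a fit comes from the 2 arrays of the other group alone. Limma draws that spread toward a value estimated over all probes. A call lost in this way can come from that spread, and the log2 change can stay almost as it was, as for Fcgr4 (2.69, against 2.70 and 2.68 without IFNγ replicate 1 and 2). Without IFNγ replicate 1 limma called 442 genes higher and 334 lower, and without IFNγ replicate 2 it called 443 and 305, against 882 and 1316 without unstimulated replicate 1 and 893 and 1183 without unstimulated replicate 2. Of the genes called, 381 of those higher and 242 of those lower kept their call without each array in turn, and so did 185 of the 196 that rose and 48 of the 57 that fell at least 2-fold.

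**Figure D1:**
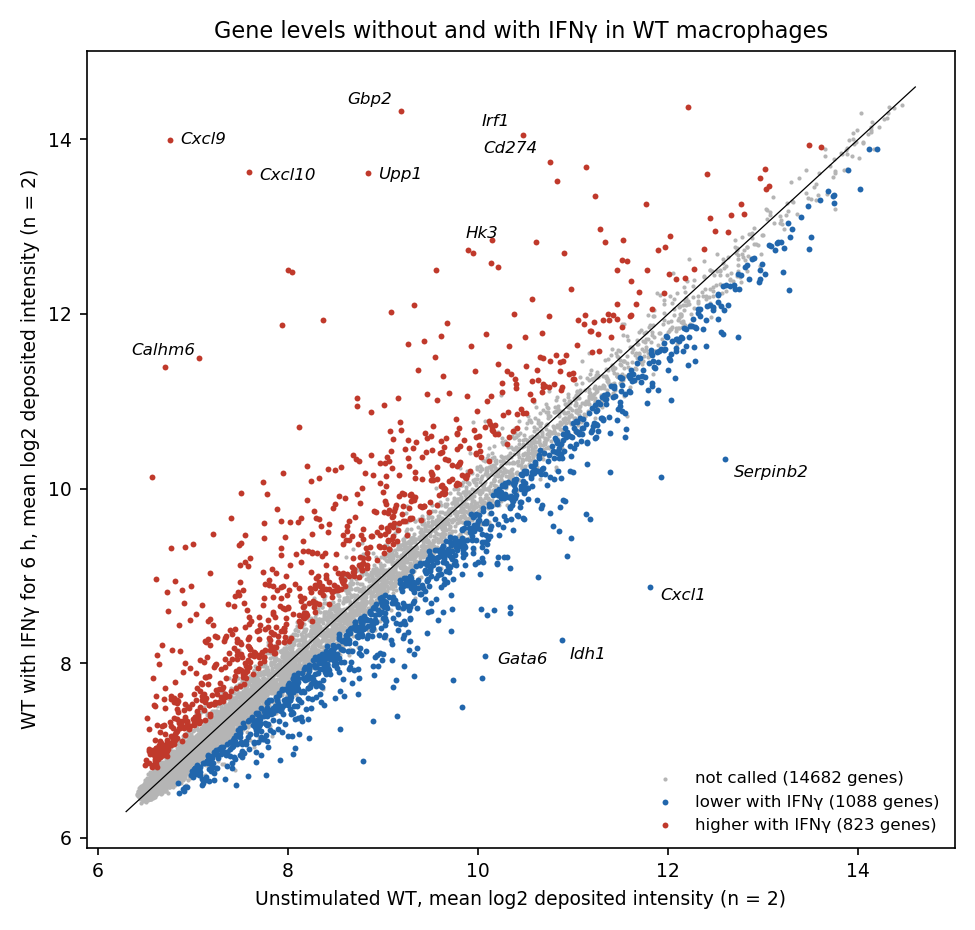
Mean log2 deposited intensity of 16593 genes in unstimulated WT macrophages (x axis) and with IFNγ (y axis), 2 arrays per group, coloured by limma's call, with the line of equal levels. The 823 genes called higher reach farther from the line than the 1088 called lower, and Cxcl9 and Cxcl10 lie farthest above it.

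The labelled cell type was checked against macrophage markers. Lyz2, the lysozyme gene of myeloid cells, stood at 22479 and 22479 without and at 20466 and 22479 with IFNγ, the top of the scale, and Adgre1, which encodes F4/80, was at 4395 and 4309 against 3395 and 3342. The call of Adgre1 (log2 -0.37 (SE 0.04), adjusted p = 0.0054) was lost without IFNγ replicate 1 or 2 (0.058 and 0.066), and its other 2 probes were not called (log2 -0.18 and -0.10). Of 12 listed markers 9 were measured, 1 of them under the median on all arrays, 3 (Mertk, Fcgr1 and Mrc1) were called higher and Adgre1 lower, and their summed intensity was 43776 to 46992 without and 39144 to 40985 with IFNγ. Levels of different probes cannot be set against each other, so these sums serve only to compare arrays. The sums of 10 B cell markers were 3103 to 4697 without and 2901 to 4143 with IFNγ. Those of 9 mast cell and basophil markers were 2767 to 3009 against 3273 to 3567, and those of 10 neutrophil and eosinophil markers were 3440 to 4348 against 4552 to 4852. Most of the last sum was S100a8, at 2526 and 3411 against 3638 and 3939, while its usual partner S100a9 was near the median at 99.5 and 103 against 101 and 103. Of 11 T and NK cell, 12 mesothelial and fibroblast and 8 dendritic cell markers 0 were called by limma, and 3, 9 and 5 of them lay under the median on all 4 arrays. The only marker of another cell type called was Hdc, the histidine decarboxylase gene of mast cells and basophils, which macrophages can also express. Hdc rose from 233 and 237 to 603 and 453 (log2 1.16 (SE 0.13), adjusted p = 0.0041).

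Genes that mark the large resident macrophages of the peritoneum went both ways: of 19 measured, 4 were called higher and 5 lower, against 4.96% and 6.56% of all genes. Of genes above the median on some array, 8.13% were called higher and 10.8% lower. Without either IFNγ array 1 was called higher and 2 lower. Gata6, the transcription factor gene that defines these cells, fell from 1019 and 1138 to 247 and 299 (log2 -1.99 (SE 0.10), adjusted p = 0.00026). Ltbp1, which encodes a latent TGFβ binding protein, fell from 505 and 450 to 246 and 253. Selp, the gene of P-selectin, rose from 117 and 109 to 532 and 453 (log2 2.12 (SE 0.09)). Serpinb2, the gene of plasminogen activator inhibitor 2, went from 8437 and 4589 to 1481 and 1141 (log2 -2.26 (SE 0.28)), and Timd4, a receptor gene for phosphatidylserine on dying cells, from 251 and 385 to 793 and 929 (log2 1.46 (SE 0.20)). The unstimulated replicates of both differ by over 1.5 times. Both lost their call without IFNγ replicate 1 or 2, with adjusted p = 0.063 and 0.091 for Serpinb2 and 0.075 and 0.11 for Timd4. In RNA of whole cultures, fewer cells of a type and less RNA per cell cannot be told apart.

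Of 17 measured genes of the receptor, JAK-STAT and feedback list, 8 were called higher and 2 lower, with a list median of 0.11, and 6 and 0 without either IFNγ array. Ifngr1 went from 479 and 437 to 357 and 332 (log2 -0.41 (SE 0.07), adjusted p = 0.015), and Ifngr2, at 425 and 467 against 408 and 365, was not called (log2 -0.21 (SE 0.07), adjusted p = 0.2). Jak2 went from 596 and 461 to 958 and 1143 (log2 1.00 (SE 0.14)), and Jak1, at 124 and 117 against 132 and 128, was not called. Stat2 rose from 143 and 143 to 348 and 369 (log2 1.33 (SE 0.05), adjusted p = 8.5e-05), and Stat3 from 659 and 553 to 1360 and 1440.

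The largest changes in that list were those of feedback inhibitors. SOCS proteins bind activated JAKs or receptors and shut signalling down. Socs3 rose from 1053 and 864 to 6703 and 6949 (log2 2.84 (SE 0.10)), Socs1 from 105 and 107 to 465 and 436 (log2 2.09 (SE 0.05)) and their relative Cish from 144 and 136 to 312 and 300, while Socs2 was lower, at 322 and 283 against 210 and 215. Usp18, which encodes a protease that removes ISG15 and damps signalling of the type I interferon receptor, rose from 487 and 451 to 1846 and 1919. Of the phosphatases that act on this pathway, Ptpn1 went from 276 and 390 to 606 and 595 (log2 0.87 (SE 0.15)). Ptpn6 and Ptpn11, at 2911 and 2575 against 2739 and 2619 and at 2353 and 2115 against 2057 and 1958, were not called (log2 -0.03 and -0.15). Without IFNγ replicate 1 or 2, calls were lost for Ifngr1 (adjusted p = 0.076 and 0.13), Jak2 (0.058 and 0.1), Socs2 (0.1 and 0.092) and Ptpn1 (0.17 and 0.17).

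Transcription factors came next. Of 17 measured members of the list of IRF, BATF and NF-κB factors and class transactivators, 11 were called higher and 0 lower. Irf1 was already present without stimulation, at 1373 and 1472, and reached 16471 and 17567 (log2 3.58 (SE 0.06), adjusted p = 4.4e-06). Batf2, whose product pairs with IRF1 in macrophages, rose from 133 and 136 to 2876 and 2922 (log2 4.43 (SE 0.04)). Nlrc5, the transactivator gene of MHC class I, rose from 190 and 175 to 953 and 1032 (log2 2.44). Irf8, a myeloid IRF gene, rose from 415 and 487 to 1095 and 1220 (log2 1.36). Irf7, the gene of a factor for type I interferon genes, rose from 211 and 176 to 351 and 390 (log2 0.94), a call lost without IFNγ replicate 2 (adjusted p = 0.056). The brightest members not called were Irf2, an antagonist of IRF1, at 3817 and 3517 against 3876 and 4169, and Irf3, at 1646 and 1695 against 1522 and 1515. Without IFNγ replicate 1 the list had 7 calls and without replicate 2 it had 6.

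The GTPases of the guanylate-binding (GBP) and immunity-related (IRG) families, which assemble on vacuoles that hold microbes, held 6 of the 12 largest rises. Of 16 measured members 11 were called higher and 0 lower, the same counts without each array in turn, and the list median was a log2 change of 2.45. Gbp2 rose from 601 and 568 to 21486 and 19689, which is 35.2-fold (log2 5.14 (SE 0.06), adjusted p = 1.5e-06). Gbp3 rose from 254 and 260 to 5607 and 5993, Igtp from 258 and 271 to 5901 and 5523, Ifi47 from 245 and 247 to 3745 and 3740, and Irgm2 from 324 and 336 to 3851 and 3974. Gbp5 was under the array median without stimulation and reached 1112 and 1142, at least 10.9-fold higher. Gvin1, the gene of a very large inducible GTPase, rose from 545 and 540 to 4176 and 4156. Members near the bottom of the scale in both groups and not called were Iigp1, at 101 and 105 against 96.7 and 106, and Gbp9, at 93.9 and 102 against 100 and 110.

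**Figure D2:**
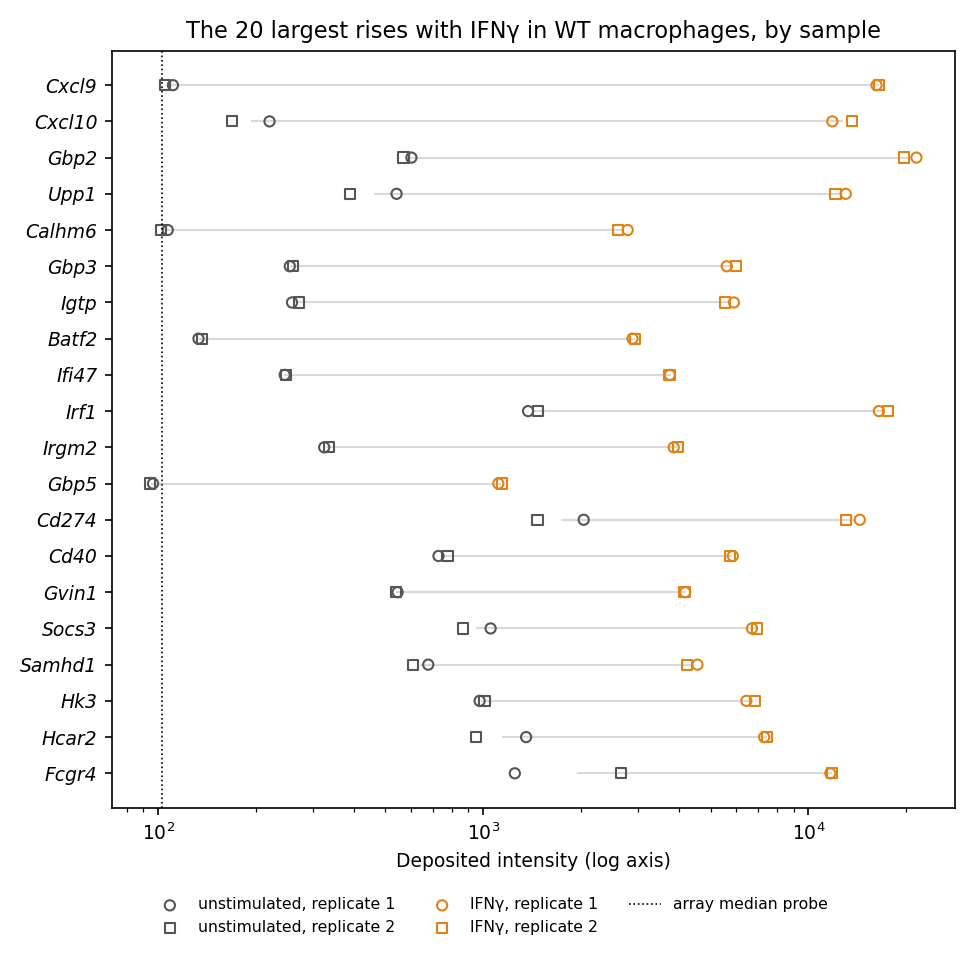
Deposited intensity on a log axis of the 20 genes with the largest rises, 1 symbol per array (circles replicate 1, squares replicate 2), with a grey line between the group means and a dotted line at the array median probe. The 20 genes were chosen among those called whose groups do not overlap, so that separation is no result. Genes with provisional names were passed over. The widest gap between unstimulated replicates is that of Fcgr4, at 1250 and 2654.

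Cxcl9 and Cxcl10, whose products draw activated T cells through the receptor CXCR3, had the largest rises of all genes called. Cxcl9 was at 111 and 105 without and 16195 and 16471 with IFNγ, which is 151-fold (log2 7.24 (SE 0.05), adjusted p = 4e-07). Cxcl10 was at 220 and 169 and reached 11841 and 13589 (log2 6.04 (SE 0.13)). Cxcl11, the other CXCR3 ligand gene, had group means of 90.0 and 93.4, at the bottom of the scale, and was not called (log2 0.05, adjusted p = 0.68). Of 9 measured T cell attracting chemokines 5 were called higher and 1 lower, and 4 and 0 without either IFNγ array. Cxcl16, the gene of a membrane-bound chemokine for CXCR6, rose from 1957 and 2084 to 5032 and 4948, and Ccl4 from 1477 and 1421 to 2751 and 2673. Ccl5 went from 298 and 480 to 978 and 1499 (log2 1.68 (SE 0.28)), and lost its call without IFNγ replicate 1 or 2 (adjusted p = 0.059 and 0.13). Ccl17 and Ccl22, chemokine genes of alternatively activated cells, stayed between 96.5 and 119 on all arrays and were not called.

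Promoters of the largest rises are shown because GAS and ISRE are the elements through which this pathway is known to act. Sequences are the RefSeq windows of build GRCm38.p6 from 250 bases before to 50 bases after each transcript start, read 5′ to 3′ on the gene's strand. GAS was searched as TTCNNNGAA and ISRE as GAAA, any 2 bases and GAAA, on both strands, and capitals mark the matches. Shown are the 6 genes with the largest rises that hold a match.
Cxcl10 promoter, chr5:92348840-92349139, minus strand: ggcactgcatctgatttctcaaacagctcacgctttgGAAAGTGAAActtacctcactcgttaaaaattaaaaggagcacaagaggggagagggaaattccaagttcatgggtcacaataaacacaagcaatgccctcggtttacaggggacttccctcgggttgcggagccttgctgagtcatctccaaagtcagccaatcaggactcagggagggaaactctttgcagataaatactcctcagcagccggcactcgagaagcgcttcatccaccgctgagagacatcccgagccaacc
Gbp2 promoter, chr3:142620413-142620712, plus strand: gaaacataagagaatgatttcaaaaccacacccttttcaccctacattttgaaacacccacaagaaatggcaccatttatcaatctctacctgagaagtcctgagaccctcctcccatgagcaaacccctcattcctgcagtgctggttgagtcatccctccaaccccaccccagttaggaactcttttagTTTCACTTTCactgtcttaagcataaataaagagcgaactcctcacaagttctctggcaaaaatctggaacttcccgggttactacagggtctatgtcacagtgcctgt
Calhm6 promoter, chr10:34127923-34128222, minus strand: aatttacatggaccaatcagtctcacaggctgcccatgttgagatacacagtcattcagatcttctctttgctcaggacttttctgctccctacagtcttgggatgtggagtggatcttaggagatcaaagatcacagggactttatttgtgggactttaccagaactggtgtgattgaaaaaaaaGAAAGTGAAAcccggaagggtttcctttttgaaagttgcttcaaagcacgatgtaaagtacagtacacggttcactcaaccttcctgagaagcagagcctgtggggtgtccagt
Gbp3 promoter, chr3:142559794-142560093, plus strand: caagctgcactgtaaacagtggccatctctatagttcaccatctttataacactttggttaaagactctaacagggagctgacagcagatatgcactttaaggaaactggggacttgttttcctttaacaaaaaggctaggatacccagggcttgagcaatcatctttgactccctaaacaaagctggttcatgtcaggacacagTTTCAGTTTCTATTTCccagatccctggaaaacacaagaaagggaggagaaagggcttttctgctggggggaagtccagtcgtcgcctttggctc
Igtp promoter, chr11:58199306-58199605, plus strand: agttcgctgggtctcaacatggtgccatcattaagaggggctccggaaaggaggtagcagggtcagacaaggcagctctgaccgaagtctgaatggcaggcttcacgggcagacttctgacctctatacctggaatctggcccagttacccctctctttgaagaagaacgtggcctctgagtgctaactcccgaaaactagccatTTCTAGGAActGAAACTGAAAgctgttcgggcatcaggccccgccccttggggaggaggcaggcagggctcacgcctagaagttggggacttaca
Irf1 promoter, chr11:53769764-53770063, plus strand: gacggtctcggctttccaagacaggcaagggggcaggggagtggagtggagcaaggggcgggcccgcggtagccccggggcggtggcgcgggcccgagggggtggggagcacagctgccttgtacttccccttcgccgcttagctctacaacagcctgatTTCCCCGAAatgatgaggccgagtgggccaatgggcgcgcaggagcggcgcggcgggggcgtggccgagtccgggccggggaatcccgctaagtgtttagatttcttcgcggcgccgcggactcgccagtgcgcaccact
The Irf1 window shown held a single GAS, with the letters TTCCCCGAA, between 90 and 82 bases before the start. Irf1 and Gbp3 each had 2 windows, of which only the 1 shown held a GAS or ISRE. In Igtp a GAS, from 45 to 37 bases, and an ISRE, from 34 to 25 bases before the start, lay side by side. The ISRE of Gbp2 (59 to 50 bases before the start) and that of Calhm6 (64 to 55) lay at similar distances, that of Cxcl10 farther out (213 to 204), and Gbp3 held a pair of overlapping matches. Calhm6, of a family of calcium homeostasis modulator channels, rose from 107 and 102 to 2780 and 2592 (log2 4.68 (SE 0.06)). Of the 20 genes with the largest rises 16 had windows, 20 in all. An ISRE was in 8 windows (40%) and a GAS in 6 (30%), against 3.44% and 8.3% of all 32851 windows. These windows came from 8 and 6 genes. The related GTPase genes Gbp2, Gbp3, Gbp5, Igtp and Irgm2 were among the 8. Of the 20 genes with the largest falls 14 had windows, 17 in all, with an ISRE in 1 (5.88%) and a GAS in 3 (17.6%). The 3 GAS windows came from 2 genes, with 2 of the windows from Serpinb2. The Cxcl9 window held neither. These are matches of letters in short windows, and neither binding nor a cause was measured.

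Presentation on MHC class I, which shows peptides from inside the cell to CD8 T cells, rose in most of the genes listed. Of 19 measured members 14 were called higher and 0 lower, with 10 and 11 called higher without IFNγ replicate 1 and 2. For the immunoproteasome subunits, Psmb9 rose from 562 and 670 to 3482 and 2973 (log2 2.39 (SE 0.11)) and Psmb10 from 2320 and 2694 to 8302 and 7761. The peptide transporter genes Tap1 and Tap2 rose from 151 and 146 to 684 and 742 and from 762 and 879 to 3910 and 3713. Tapbpl, which encodes the peptide editor TAPBPR, rose from 228 and 200 to 1032 and 1119. The light chain gene B2m was near the top of the scale, at 18070 and 18070 against 18846 and 18846, and was not called, nor was the chaperone gene Pdia3. Of 14 standard proteasome subunits 1 was called: Psma5 went from 7694 and 8341 to 12467 and 11592 (log2 0.59 (SE 0.06)), a call lost without IFNγ replicate 1 (adjusted p = 0.05). The list median was 0.04, and 8.13% of genes above the array median on some array were called higher.

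Class II presentation, to CD4 T cells, had 2 of 12 members called higher and 1 lower at this time. H2-DMa and H2-DMb1, which encode the chaperone that loads peptides, rose from 1050 and 852 to 2090 and 2187 and from 580 and 618 to 886 and 1092. The invariant chain gene Cd74, at 5387 and 4520 against 5291 and 5443, and the β chain gene H2-Ab1, at 3794 and 3579 against 3955 and 4492, were not called. Lgmn, the gene of an asparaginyl endopeptidase of endosomes, went from 5073 and 4441 to 2534 and 2947 (log2 -0.80 (SE 0.10)), a call lost without IFNγ replicate 1 (adjusted p = 0.054).

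Of 13 co-stimulatory and inhibitory ligands and receptors 6 were called higher and 1 lower. Cd274, the gene of the checkpoint ligand PD-L1, rose from 2036 and 1467 to 14385 and 13077 (log2 2.99 (SE 0.15)), and Cd40, a receptor gene for help from T cells, from 728 and 776 to 5854 and 5737 (log2 2.95 (SE 0.05)). Cd86 rose from 1232 and 960 to 3404 and 3595, while its relative Cd80, at 245 and 226 against 194 and 219, was not called. Of the adhesion ligands for leukocytes, Icam1 rose from 1099 and 1159 to 5737 and 6523 (log2 2.44), and Vcam1, under the median before, reached 203 and 256, at least 2.21-fold higher.

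The neutrophil chemokine genes Cxcl1 and Cxcl2 fell and the monocyte chemokine genes Ccl12 and Ccl8 rose. Cxcl1 fell from 3628 and 3567 to 453 and 483, which is 7.68-fold lower and the largest fall called (log2 -2.94 (SE 0.05), adjusted p = 5.5e-06), and Cxcl2 fell from 1468 and 1132 to 356 and 407 (log2 -1.76 (SE 0.13)). Ccl12 rose from 275 and 378 to 1026 and 1212 (log2 1.79 (SE 0.16)), and Ccl8 from under the median to 131 and 147, at least 1.35-fold. Platelet-type chemokine genes were Ppbp, at 172 and 156 against 132 and 121 and not called without IFNγ replicate 1 or 2 (adjusted p = 0.086 and 0.19), and Pf4, not called. Ccl9, at 7003 and 6472 against 6628 and 6703, was not called either. Of 16 measured members of this list 2 were called higher and 3 lower, with a median of -0.03.

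The Cxcl1 window is shown with that of Serpinb2, the 2 largest falls whose windows hold the NF-κB letters GGG, any 2 bases and TTTCC or the AP-1 letters TGANTCA, searched on both strands and marked in capitals.
Cxcl1 promoter, chr5:90890995-90891294, plus strand: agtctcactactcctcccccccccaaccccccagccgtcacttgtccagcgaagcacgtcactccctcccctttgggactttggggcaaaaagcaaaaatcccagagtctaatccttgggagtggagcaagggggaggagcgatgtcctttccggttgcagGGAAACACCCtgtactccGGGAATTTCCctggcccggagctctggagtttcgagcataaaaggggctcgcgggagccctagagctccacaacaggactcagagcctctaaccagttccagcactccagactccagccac
Serpinb2 promoter, chr1:107511173-107511472, plus strand: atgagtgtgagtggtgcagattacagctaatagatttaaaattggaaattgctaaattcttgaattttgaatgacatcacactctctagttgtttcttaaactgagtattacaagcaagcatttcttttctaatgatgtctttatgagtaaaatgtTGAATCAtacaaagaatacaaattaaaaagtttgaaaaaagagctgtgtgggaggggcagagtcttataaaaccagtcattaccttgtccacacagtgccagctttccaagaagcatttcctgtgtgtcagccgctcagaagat
Cxcl1 held a pair of NF-κB matches, at 89 to 80 and 71 to 62 bases before the start, and Cxcl2 held the motif as well. Serpinb2 held an AP-1 match at 94 to 88 bases before the start. NF-κB letters were in 2 of 17 windows of the largest falls (11.8%), 1 of 20 windows of the largest rises (5%) and 1.63% of all windows. AP-1 letters were in 17.6%, 25% and 7.81%, from 2 genes among the falls and 4 among the rises.

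Receptors for chemoattractants had 3 of 14 called higher and 1 lower, with 2 and 3 lower without unstimulated replicate 1 and 2. Ccrl2, a non-signalling chemerin receptor gene, rose from 206 and 225 to 643 and 747. Ltb4r1, the leukotriene B4 receptor gene, rose from 198 and 231 to 529 and 526, and Fpr2, a formyl peptide receptor gene, from 5512 and 5357 to 12366 and 12467. Gpr183, a receptor gene for oxysterols that guides cell positioning, fell from 478 and 473 to 172 and 152 (log2 -1.56 (SE 0.07)). Ch25h, the enzyme gene that starts the synthesis of its ligand, rose from 3564 and 3437 to 9758 and 9812 (log2 1.48 (SE 0.05)), the only one of 15 members called in the list of cholesterol efflux, oxysterols and lipid receptors.

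Of 23 cytokine genes 10 were called higher and 0 lower, 7 and 6 without IFNγ replicate 1 and 2. Tnf rose from 635 and 748 to 2992 and 3638 (log2 2.26 (SE 0.12)), and Il1rn, the antagonist of IL-1, from 1359 and 1034 to 6100 and 5780 (log2 2.32 (SE 0.13)). Il1a rose from 387 and 335 to 805 and 1021. Il27, a subunit gene of a cytokine that restrains T cells, rose from 101 and 104 to 294 and 297, and the death receptor gene Fas from 266 and 298 to 714 and 920. Osm and Tgfb1 were not called (log2 -0.12 and 0.13). Of 21 cytokine receptor genes, 5 were called higher and 2 lower, and 4 and 1 without either IFNγ array. Il15ra, which presents IL-15 to lymphocytes, rose from 123 and 116 to 404 and 424. Il13ra1, a receptor chain gene for IL-4 and IL-13, rose from 258 and 245 to 679 and 711. The receptor chains for IL-10 parted: Il10ra rose from 420 and 379 to 692 and 668 and Il10rb fell from 876 and 863 to 543 and 609.

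The NF-κB list had 10 of 17 members called higher and 0 lower, but 4 without IFNγ replicate 1 and 3 without replicate 2. Tnfaip2 rose from 1569 and 1554 to 6990 and 7472 (log2 2.21 (SE 0.05)). Tnip1, an inhibitor of NF-κB signalling, rose from 1221 and 1228 to 2151 and 2256, and Marcksl1 from 776 and 827 to 1301 and 1557. Nfkbie (log2 0.95) and Plau, the gene of urokinase (log2 1.37), lost their call without IFNγ replicate 1 (adjusted p = 0.053 and 0.097) or 2 (0.055 and 0.063). The feedback genes Nfkbia, at 2466 and 1821 against 2141 and 2273, and Tnfaip3, at 635 and 498 against 775 and 742, were not called (adjusted p = 0.92 and 0.079).

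Genes best known from the antiviral response to type I interferon also rose: 19 of 28 were called higher and 0 lower. Samhd1, which hydrolyses deoxynucleotides, rose from 677 and 608 to 4556 and 4231 (log2 2.77 (SE 0.07)). Isg15, the ubiquitin-like modifier gene, rose from 308 and 251 to 1693 and 1641 (log2 2.58). Oasl1 rose from 179 and 161 to 769 and 856, Ifit2 from 125 and 128 to 452 and 494, and Oasl2 from 646 and 505 to 2138 and 2075. Ifitm3 and Ifitm2, which encode membrane proteins that block viral entry, were high before, at 12527 and 13222 for Ifitm3, and were not called (log2 0.16 and 0.30). Enzymes of the ISG15 pathway rose as well. Uba7, its activating enzyme gene, rose from 507 and 523 to 2005 and 1978, and Ube2l6, its conjugating enzyme gene, from 172 and 160 to 367 and 455. In that list of TRIM and ubiquitin-like enzymes 11 of 15 were called higher and 0 lower, among them Trim21, an antibody receptor in the cytosol, from 230 and 201 to 821 and 743.

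Sensors of nucleic acids in the cytosol had 5 of 9 called higher and 1 lower, 4 and 0 without IFNγ replicate 1 and 3 and 0 without replicate 2. Zbp1, a sensor of Z-form nucleic acids, rose from 132 and 142 to 388 and 424, Trex1, which degrades DNA, from 582 and 591 to 1753 and 1506, and Ifi205 from 120 and 130 to 314 and 415. Adar (log2 0.53) lost its call without IFNγ replicate 1 or 2 (adjusted p = 0.22 and 0.18), and Ifi204 (log2 0.51) without unstimulated replicate 2 or IFNγ replicate 2 (adjusted p = 0.085 and 0.13). Cgas, between 104 and 115 on all arrays, and Aim2 were not called. Of 7 PARP genes 3 rose and 1 fell. Parp14, which encodes a mono-ADP-ribosyltransferase, rose from 825 and 741 to 3651 and 3230 (log2 2.14), and Parp12 and Parp3 rose by 1.33 and 0.94, whereas Parp1, the DNA repair enzyme gene, fell from 576 and 566 to 422 and 381 (log2 -0.51 (SE 0.06), adjusted p = 0.0056). Of 7 Schlafen genes Slfn1, from 326 and 281 to 1087 and 1084, and Slfn2, from 316 and 280 to 623 and 629, rose.

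**Figure D3:**
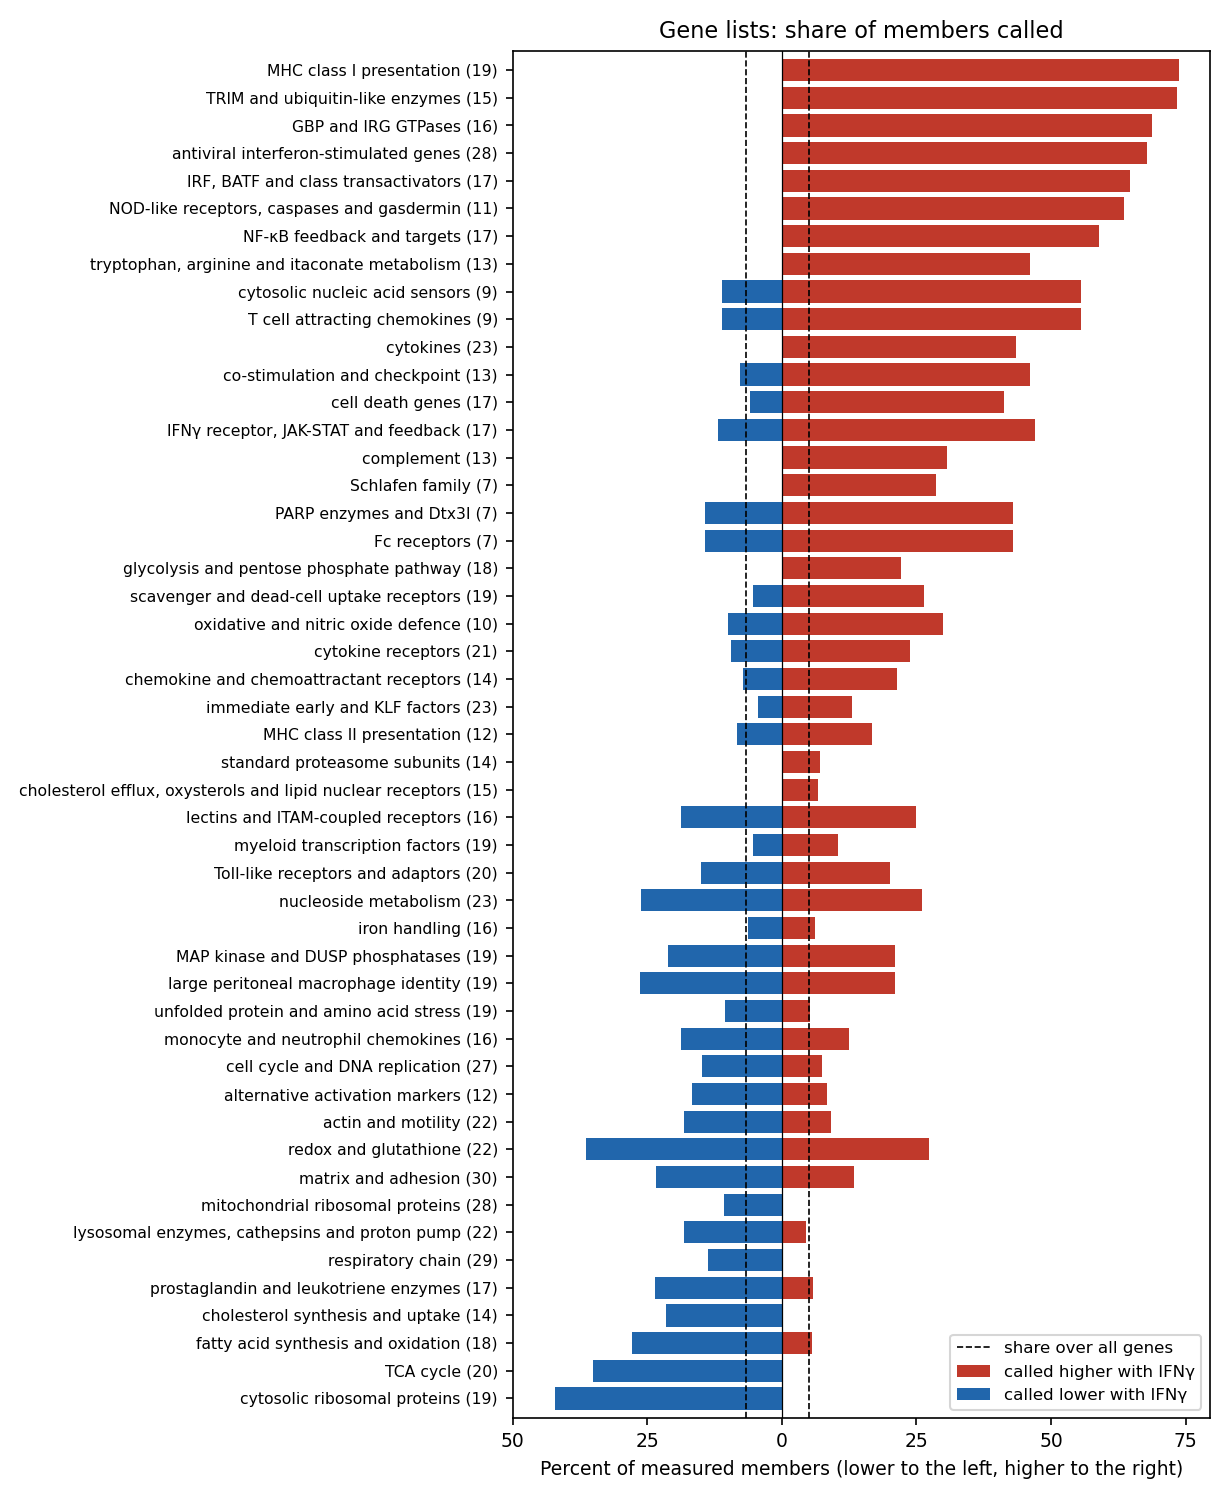
Percent of the measured members of each gene list drawn called higher (red, to the right) or lower (blue, to the left) with IFNγ. The number measured is in brackets, and dashed lines mark the share over all genes, 4.96% higher and 6.56% lower. The lists of cell type markers used to check the label are not drawn. Among the 10118 genes above the array median on some array, the shares were 8.13% and 10.8%. Lists of class I presentation, TRIM and ubiquitin-like enzymes, GTPases and antiviral genes stand at the top, and cytosolic ribosomal proteins and the TCA cycle at the bottom.

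Toll-like receptors, which sense microbial products, divided. Of 20 measured members and adaptors 4 were called higher and 3 lower, 3 and 2 without either IFNγ array, 6 and 6 without unstimulated replicate 1. Tlr13, which recognises bacterial ribosomal RNA, fell from 2186 and 1753 to 576 and 624 (log2 -1.71 (SE 0.11)), and Tlr7, a receptor gene for single-stranded RNA, from 1131 and 998 to 546 and 602 (log2 -0.89 (SE 0.08)). Tlr6 rose from 530 and 521 to 903 and 907 and Cd180, a relative of TLR4, from 492 and 546 to 1262 and 1252. Tlr2, at 7761 and 6501 against 5993 and 7694, was not called. Neither was Cd14, at 16146 and 11841 against 9695 and 9216 (log2 -0.55 (SE 0.14), adjusted p = 0.073). The shared adaptor gene Myd88 rose from 4125 and 3870 to 6858 and 7090.

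NOD-like receptors and the machinery of inflammatory cell death had 7 of 11 genes called higher and 0 lower, 5 and 4 without IFNγ replicate 1 and 2. Casp4, whose caspase senses lipopolysaccharide in the cytosol, rose from 248 and 247 to 1076 and 1242 (log2 2.22). Nod1, a sensor of peptidoglycan, rose from 203 and 239 to 1020 and 938 (log2 2.15), Casp1 from 3002 and 2916 to 7668 and 7065, and Gsdmd, the pore-forming gasdermin, from 771 and 856 to 1642 and 1431. Nod2 (log2 0.38) lost its call without IFNγ replicate 2 (adjusted p = 0.098). Of 17 genes of apoptosis and necroptosis 7 were called higher and 1 lower. Mlkl, the executioner of necroptosis, rose from 711 and 616 to 2758 and 2507 (log2 1.99), and Ripk3, the kinase that activates it, from 188 and 203 to 360 and 355. Daxx and Bid rose by 0.90 and 0.54. The survival gene Mcl1 and Apaf1, the scaffold of the apoptosome, were not called (log2 0.20 and -0.05).

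Of 10 genes of oxidative and nitric oxide defence 3 were called higher and 1 lower. Nos2, the inducible nitric oxide synthase gene, rose from 103 and 106 to 149 and 215 (log2 0.78 (SE 0.16), adjusted p = 0.038), while Ass1, which regenerates its substrate arginine, rose from 2357 and 2112 to 3861 and 4253. Slc11a1, a metal transporter gene of phagosomes, at 19689 and 18555 against 18350 and 17797, and Cyba, of the NADPH oxidase, were high and not called. Sod2 (log2 0.46) lost its call without IFNγ replicate 1 or 2 (adjusted p = 0.059 and 0.071), and Ncf4 (log2 -0.26) without either or without unstimulated replicate 2 (0.12, 0.2 and 0.083). In the list of tryptophan, arginine and itaconate metabolism 6 of 13 were called higher and 0 lower. Wars, the tryptophanyl-tRNA synthetase gene, rose from 443 and 408 to 2246 and 1956 (log2 2.30 (SE 0.08)). Slc7a2, an arginine transporter gene, rose from 1157 and 823 to 3240 and 3093. Ido1, which degrades tryptophan, rose from under the median to 191 and 175, at least 1.77-fold. Arg1, the arginase gene, stood at 14524 and 15547 against 15323 and 14796 and was not called.

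Of 13 complement genes 4 were called higher and 0 lower, with 2 and 1 higher without IFNγ replicate 1 and 2. C2 rose from 132 and 160 to 439 and 622 (log2 1.84 (SE 0.17)). Cfb, its counterpart in the alternative pathway, went from 532 and 941 to 2012 and 2342, C4b from 3963 and 4292 to 5387 and 5901, and Serping1, an inhibitor gene, from under the median to 122 and 138, at least 1.26-fold. Cfb and C4b lost their call without IFNγ replicate 1 or 2 (adjusted p = 0.11 and 0.15 for Cfb, 0.053 and 0.1 for C4b), and Serping1 without replicate 2 (0.058). C1qb and C1qc were not called. Of 7 Fc receptor genes 3 were called higher and 1 lower. Fcgr1, the high-affinity receptor gene for IgG, rose from 648 and 646 to 986 and 932 (log2 0.57 (SE 0.05)). Fcgr4 went from 1250 and 2654 to 11676 and 11841 (log2 2.69 (SE 0.32), adjusted p = 0.0054), with the call lost without IFNγ replicate 1 or 2 (0.079 and 0.082). Fcer1g, the γ chain gene itself, was at 17567 and 18350 against 16987 and 18350 and was not called. Fcgr3 (log2 0.24) and the inhibitory Fcgr2b (-0.26) were called with all 4 arrays, though a second probe of Fcgr2b was at a log2 change of -0.03. Fcgr3 lost its call without each array in turn (highest adjusted p = 0.16) and Fcgr2b without each array but unstimulated replicate 2 (0.17).

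Lectins and receptors that couple to ITAM adaptors had 4 of 16 called higher and 3 lower, 2 and 2 without IFNγ replicate 1 and 2 and 1 without replicate 2. Clec2d rose from 481 and 602 to 1595 and 1644, and Clec5a from 851 and 717 to 1492 and 1492. Clec4a3, a lectin gene of the DCIR group, fell from 558 and 573 to 226 and 223 (log2 -1.33 (SE 0.04), adjusted p = 5.8e-05). Clec4e, the receptor gene for mycobacterial glycolipid, went from 6100 and 5088 to 8678 and 8844 and lost its call without IFNγ replicate 1 or 2 (adjusted p = 0.092 and 0.1). Trem2 (log2 -0.54) lost it without either or without unstimulated replicate 2 (adjusted p = 0.28, 0.12 and 0.063). The adaptor gene Tyrobp, at 6208 and 6990 against 5543 and 5088, was not called.

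Of 19 scavenger and dead-cell receptor genes 5 were called higher and 1 lower, 3 and 0 without either IFNγ array, and 4 lower without unstimulated replicate 1. Mertk, which binds dying cells through bridging proteins, rose from 774 and 681 to 1612 and 1504 (log2 1.10 (SE 0.08)), and Pros1, the gene of a bridging protein, from 1074 and 993 to 1582 and 1529. Axl, of the same family as Mertk, went from 1778 and 2052 to 2649 and 2986, a call lost without IFNγ replicate 1 or 2 (adjusted p = 0.069 and 0.13). The mannose receptor gene Mrc1, often used as a marker of alternative activation, rose from 253 and 254 to 477 and 551 (log2 1.02 (SE 0.07)). It was the only member called higher of 12 in that list, where Cd163 (log2 -0.23) lost its call without each array in turn (highest adjusted p = 0.19). Marco and Tgm2 were not called.

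In glycolysis and the pentose phosphate pathway 4 of 18 were called higher and 0 lower, with 3 called lower without unstimulated replicate 1. Hk3, a hexokinase gene of myeloid cells, rose from 974 and 1009 to 6443 and 6858 (log2 2.75 (SE 0.05), adjusted p = 8.8e-06), Pfkp, a phosphofructokinase gene, from 571 and 535 to 1437 and 1607, Hk2 from 3016 and 3230 to 5159 and 5512, and the glucose transporter gene Slc2a1 from 2453 and 2330 to 4156 and 3579. Gapdh, at 17238 and 16773 against 15936 and 16080, and Taldo1 were not called. All 4 rises were called without each array in turn.

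Nucleoside metabolism held the fourth largest rise. Upp1, the phosphorylase that splits uridine, went from 541 and 388 to 13028 and 12110 (log2 4.78 (SE 0.15)), and Pnp, its purine counterpart, from 1879 and 1961 to 6795 and 6549 (log2 1.80 (SE 0.05)). The salvage enzyme gene Hprt rose from 2710 and 2755 to 4084 and 4042, and Cmpk2, a mitochondrial nucleotide kinase gene, from 200 and 164 to 493 and 479. Of 23 members 6 were called higher and 6 lower. The 6 rises were 5 and 6 without IFNγ replicate 1 and 2, and the 6 falls were 0 and 1.

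The TCA cycle list, which also counts the cytosolic Idh1, had 7 of 20 members called lower and 0 higher, with a median of -0.16. Idh1, the cytosolic isocitrate dehydrogenase gene that supplies NADPH, fell from 2060 and 1724 to 302 and 315 (log2 -2.61 (SE 0.09), adjusted p = 5.8e-05), the second largest fall. Its mitochondrial relative Idh2 fell from 380 and 423 to 243 and 246 (log2 -0.71) and Mdh2 from 1451 and 1495 to 965 and 1100 (log2 -0.52). These 3 were called without each array in turn. The others were not: Idh3g lost its call without IFNγ replicate 1 or 2 (adjusted p = 0.083 and 0.13), Cs without either or without unstimulated replicate 1 (0.25, 0.23 and 0.086), and the list then had 3 calls without either IFNγ array. Of 29 respiratory chain genes 4 were called lower and 0 higher, with a median of -0.13, where 10.8% of genes above the array median on some array were called lower. Ndufa2 fell from 3411 and 3497 to 2460 and 2501 (log2 -0.48 (SE 0.04)). It was the only one called without IFNγ replicate 1 or 2, and 10 were called lower without unstimulated replicate 1. Atp5b and Cox5b were not called.

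**Figure D4:**
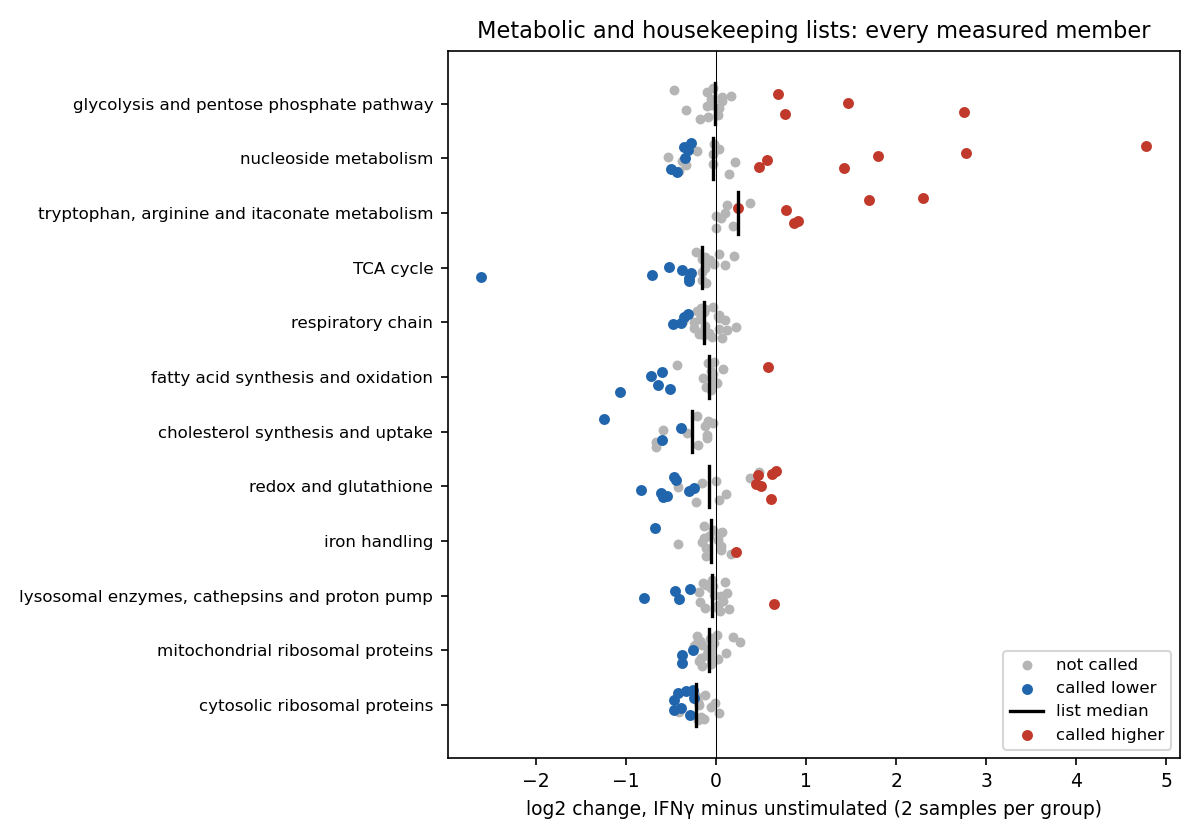
Log2 change with IFNγ of every measured member of 12 lists of metabolic and housekeeping genes, coloured by limma's call, with a bar at the list median. Upp1 lies farthest to the right and Idh1 farthest to the left, and the medians of the lists lie near 0.

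Of 18 genes of fatty acid synthesis and oxidation 5 were called lower and 1 higher, with a median of -0.08, and 4 kept their call without each array in turn. Acaca, the acetyl-CoA carboxylase gene that commits carbon to fatty acids, fell from 1844 and 1889 to 847 and 927 (log2 -1.07 (SE 0.06), adjusted p = 0.00032). Acly, which makes its substrate, fell from 4054 and 4162 to 2477 and 2768, the elongase gene Elovl5 from 1391 and 1338 to 781 and 879, and the desaturase gene Fads1 from 1361 and 1431 to 875 and 974. Fasn, the fatty acid synthase gene, and the elongase gene Elovl1 were not called (log2 0.08 and -0.15). Hadhb, of fatty acid oxidation, went from 446 and 501 to 661 and 749, a call lost without IFNγ replicate 2 (adjusted p = 0.095). All 14 measured genes of cholesterol synthesis and uptake had a log2 change below 0, from -1.25 to -0.04 with a median of -0.26, but only 3 were called lower. Sqle, the squalene epoxidase gene, went from 516 and 694 to 219 and 287 (log2 -1.25 (SE 0.18), adjusted p = 0.0094), a call lost without IFNγ replicate 1 (0.085). Hmgcs1 and Mvd lost theirs without IFNγ replicate 1 (adjusted p = 0.28 and 0.14) or 2 (0.15 and 0.19), which left 0 and 1 calls in the list, against 8 without unstimulated replicate 1.

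Redox genes went in both directions: 6 of 22 were called higher and 8 lower. Gclm, which makes glutathione, rose from 2176 and 2044 to 3263 and 3167, and Txnrd1, thioredoxin reductase, from 135 and 139 to 195 and 241. Glutathione transferase genes fell, Gsto1 from 1508 and 1352 to 722 and 895 (log2 -0.83) and Gsta3 from 686 and 664 to 449 and 435 (log2 -0.61). Srxn1 (log2 0.62) lost its call without IFNγ replicate 1 or 2 (adjusted p = 0.13 and 0.081), and the list had 3 rises and 3 falls without the first and 2 and 5 without the second. Of 16 iron genes 1 was called higher and 1 lower, against 8.13% and 10.8% of genes above the array median on some array. Cp, the ceruloplasmin gene, had a log2 change of 0.22, and its call was lost without each array in turn (highest adjusted p = 0.19). Tfrc, the transferrin receptor gene, went from 849 and 758 to 483 and 518 (log2 -0.68), a call lost without IFNγ replicate 1 (adjusted p = 0.052), and ferritin Fth1 was not called.

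Of 22 lysosomal genes 1 was called higher and 4 lower, the latter 0 and 1 without IFNγ replicate 1 and 2. Ctsc, the cathepsin that activates serine proteases of granules, rose from 8246 and 8406 to 12739 and 13222 (log2 0.64 (SE 0.05)). Ctsl, at 239 and 173 against 118 and 115, and Ctsk lost their calls without IFNγ replicate 1 (adjusted p = 0.17 and 0.23) or 2 (0.19 and 0.23), and Gusb without replicate 1 (0.053). Ctsb and Ctsh were not called. Of the cytosolic ribosomal protein genes 8 of 19 were called lower and 0 higher, the median was -0.22 and the range -0.47 to 0.03. Rpl35 went from 14315 and 13077 to 10161 and 9644 (log2 -0.47 (SE 0.06)) and Rps3 from 8406 and 7898 to 6350 and 5833. Without IFNγ replicate 1 there was 1 call in that list and without replicate 2 there were 0, against 11 without unstimulated replicate 1 and 6 without replicate 2. Mitochondrial ribosomal proteins had 3 of 28 called lower and a median of -0.08. Of genes above the array median on some array 10.8% were called lower.

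Of 27 cell cycle genes 2 were called higher and 4 lower, against 8.13% and 10.8% of genes above the array median on some array. Cdkn1a, the gene of the cell cycle inhibitor p21, rose from 1144 and 1051 to 2106 and 1989 (log2 0.90 (SE 0.06)) and Ccnd2 from 110 and 115 to 223 and 219. The replication licensing genes Mcm4, Mcm6 and Mcm2 had log2 changes of -0.51, -0.31 and -0.30, and the list had 0 genes called lower without IFNγ replicate 1 or 2 and 9 without unstimulated replicate 1. Another inhibitor gene, Cdkn2b, fell from 1156 and 1033 to 413 and 343 (log2 -1.54 (SE 0.10)). Of 19 genes of the unfolded protein and amino acid stress response 1 was called higher, Atf3, from 398 and 368 to 627 and 693, and 2 lower. The 2 were Dnajb9 (log2 -0.60), lost without IFNγ replicate 2 (adjusted p = 0.081), and Herpud1 (-0.45), lost without replicate 1 or 2 (0.13 and 0.071).

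In the MAP kinase list 4 of 19 were called higher and 4 lower, 2 and 2 without IFNγ replicate 1 and 1 and 3 without replicate 2. The phosphatase genes Dusp6 and Dusp1, which switch off ERK and other MAP kinases, fell from 4461 and 3900 to 2023 and 2115 (log2 -1.01 (SE 0.07)) and from 829 and 804 to 486 and 493 (log2 -0.74 (SE 0.05)). Dusp28 rose from 137 and 133 to 285 and 243. Mapk9 (log2 0.68) lost its call without IFNγ replicate 1 or 2 (adjusted p = 0.051 and 0.067). Immediate early and KLF genes had 3 of 23 called higher and 1 lower, against 8.13% and 10.8% of genes above the array median on some array. Of 19 myeloid transcription factor genes 2 were called higher and 1 lower, with 0 calls without either IFNγ array, among them Spi1, which encodes PU.1, at 426 and 406 against 502 and 524 (log2 0.30 (SE 0.05), adjusted p = 0.094 and 0.15 without replicate 1 and 2).

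Of 17 eicosanoid genes 1 was called higher and 4 lower, and 1 and 2 without either IFNγ array. Ptges, which makes prostaglandin E2, rose from 3305 and 2801 to 6138 and 6325 (log2 1.03 (SE 0.08)). Ptgis, which makes prostacyclin, fell from 3342 and 3670 to 2034 and 2002, and Alox5, which starts leukotriene synthesis, from 240 and 273 to 143 and 145. Its partners Alox5ap (log2 -0.38) and Ltc4s (-0.46) lost their calls without IFNγ replicate 1 (adjusted p = 0.19 and 0.14) or 2 (0.21 and 0.13).

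Matrix and adhesion genes had 4 of 30 called higher and 7 lower. Sdc4, a syndecan gene, rose from 245 and 277 to 746 and 820 (log2 1.59 (SE 0.08)), and Adam8, a membrane protease gene, fell from 2095 and 1633 to 723 and 741 (log2 -1.34 (SE 0.11)). Thbs1, the gene of thrombospondin 1, was at 1553 and 715 against 233 and 223 (log2 -2.21 (SE 0.33), adjusted p = 0.012). Its unstimulated replicates lie further apart than those of most genes. The call was lost without IFNγ replicate 1 or 2, where the log2 change was -2.24 and -2.18. Calls were lost in the same way for Timp1 (log2 1.10, against 1.09 and 1.12) and the integrin gene Itgb5 (log2 -1.04, against -0.96 and -1.12). Without IFNγ replicate 1 the list had 3 rises and 3 falls, and without replicate 2 it had 2 and 2. Of 22 actin and motility genes 2 were called higher and 4 lower, against 8.13% and 10.8% of genes above the array median on some array. Rhob, a small GTPase gene, fell from 702 and 729 to 429 and 521, and Fscn1, which bundles actin, rose from 137 and 143 to 193 and 192.

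The remaining genes with the largest changes belong to no list. Hcar2, the receptor gene for niacin and β-hydroxybutyrate, rose from 1354 and 952 to 7306 and 7455 (log2 2.70 (SE 0.16)). Among the falls, Sel1l3 went from 941 and 881 to 170 and 193 (log2 -2.33 (SE 0.07)) and Ank, whose product exports pyrophosphate, from 807 and 901 to 221 and 226 (log2 -1.93 (SE 0.06)). Zdhhc14, a palmitoyltransferase gene, fell from 391 and 499 to 121 and 116. Emp1, a membrane protein gene, fell from 4060 and 3723 to 1118 and 1128. Genes of signalling proteins were the kinase Nuak1, from 530 and 608 to 160 and 178, the endosomal Rab5 activator Rin2, from 1548 and 1617 to 504 and 508, the adaptor Sla, from 1830 and 2231 to 642 and 750, and the kinase Cdk20, from 1206 and 1092 to 396 and 387. Nceh1, which hydrolyses cholesterol esters, fell from 2266 and 2362 to 765 and 852, Nav1 from 1452 and 1150 to 368 and 435, and the sorting nexin gene Snx24 from 628 and 661 to 241 and 221. The lists hold 874 of the 16593 measured genes, and 102 of the 196 that rose and 14 of the 57 that fell at least 2-fold. Because the lists were chosen with earlier results of these data known, these counts describe the lists and not the response.

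**Figure D5:**
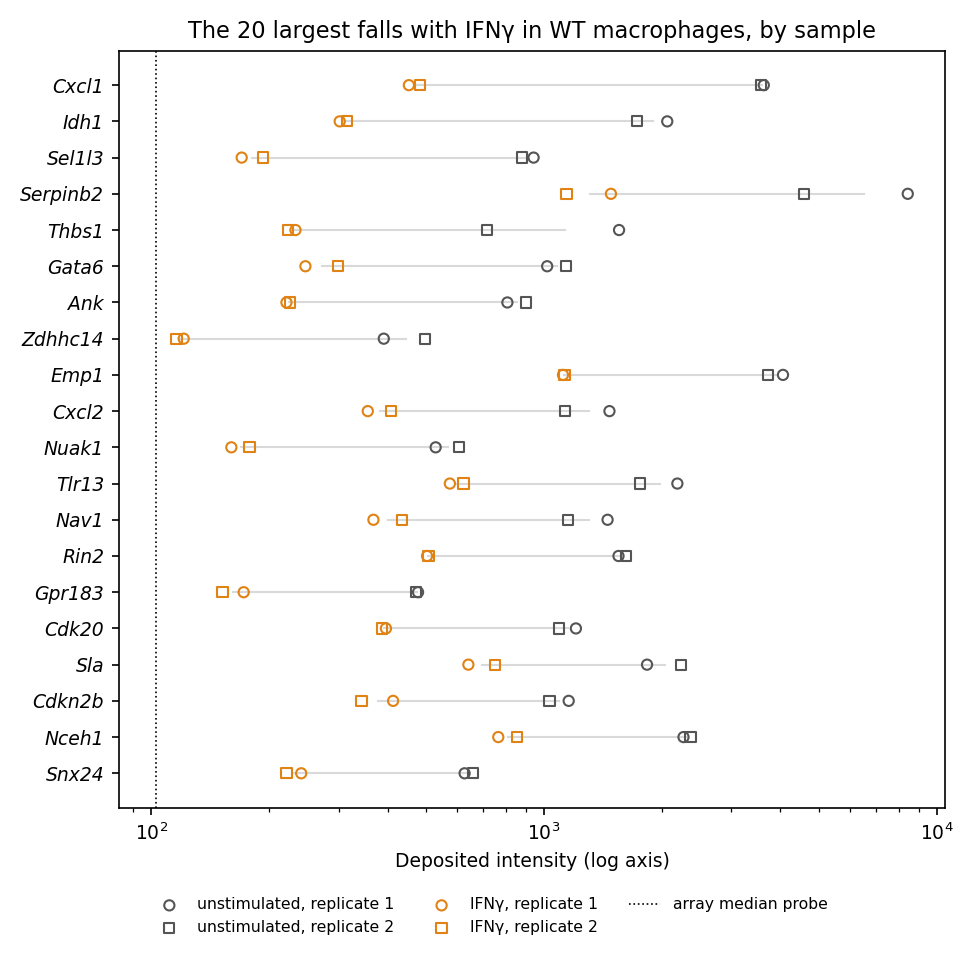
Deposited intensity on a log axis of the 20 genes with the largest falls, 1 symbol per array (circles replicate 1, squares replicate 2), with a grey line between the group means and a dotted line at the array median probe. The 20 genes were chosen among those called whose groups do not overlap, so that separation is no result. Genes with provisional names were passed over. The widest gaps between unstimulated replicates are those of Thbs1, at 1553 and 715, and Serpinb2, at 8437 and 4589.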

How the data were processed

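Messenger RNA of 4 samples, 2 WT unstimulated and 2 WT with IFNγ, was compared. The authors' deposited intensity values are on a linear scale and were normalised between arrays before deposit (sorted values of the 4 columns differ by at most 0.00585 in log2). No source used here gives the method. Background was not subtracted, which understates changes of dim genes, and normalising to equal distributions leaves changes relative. The submitters' processing notes name GenomeStudio. Another deposited file has 16 columns that name no sample and was not used, so there was no detection filter.

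Of 25697 probes 23978 had 1 gene symbol, 0 had several and 1719 had none, by the platform annotation. 23962 matched the GRCm38.p6 gene table by gene ID, which changed 0 symbols. The probe brightest on average over the 4 arrays stood for its gene. Other probes of named genes called had the same sign in 127 of 136 cases.

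The fit used limma 3.58.1 in R 4.3.3 on log2 intensities (lmFit, then eBayes; 2 residual and 3.77 prior degrees of freedom), and Benjamini-Hochberg adjustment over all probes. On simulated data with 50 probes changed per size among 25697, it called 32% of 1.3-fold, 84% of 1.5-fold, 98% of 2-fold and 100% of 3-fold changes, with 7 false calls. The simulated errors were independent and drawn from the variance prior of the fit, so the false calls do not test that model. Fewer probes were changed than were called in the data, so the shares called may differ there. An exact permutation test of 2 against 2 cannot go below p = 0.333.

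Of 1037 entries in 56 gene lists 920 matched a measured gene. Named are the 20 highest and 20 lowest log2 changes among genes called without overlap, up to 5 called and 2 bright uncalled members of each list, the receptor list and the brightest markers. Among the 20, genes with provisional names (Gm and digits, Rik, LOC or clone names) were replaced by the next gene. Members and lists were chosen with earlier results of these data known. Alternatives were background correction, a filter on dim probes, normalisation, the variance prior, the adjustment, the probe, the replicate block and each array left out. The samples of the same number correlated in their deviations from the group means with r = 0.0928, and the labels do not pair them.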

Additional observations from a re-analysis of the deposited data

How the results depend on the processing

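The counts of 823 genes called higher and 1088 lower ranged from 442 to 893 higher and from 305 to 1316 lower with each array left out in turn, the lowest of both without an IFNγ replicate. Such a fit takes a gene's own spread from the 2 arrays of the other group alone, with the lone sample assumed to vary alike. Limma then draws that spread toward a value estimated over all probes. The counts of such a fit therefore do not measure the stability of the changes themselves. Under the other alternatives both counts stayed within 1.5 times: 910 and 1206 with normexp background correction (offset 50), 881 and 1204 without probes under the array median on all 4 arrays, 823 and 1088 after quantile normalisation, 868 and 1042 with an intensity trend and robust prior, 857 and 1174 adjusted over 1 probe per gene, 796 and 984 with the mean of a gene's probes, and 820 and 1069 with the replicate number as a block. Among the 225 genes named and called, 150 calls held whichever array was left out and 75 were lost at least once, 61 of them only without an IFNγ array. Of the named calls, 16 were lost with the intensity trend and robust prior, 10 with the mean of probes, 7 with the replicate block, 3 with normexp and 1 without dim probes. Prdx1, not called, was called higher with the mean of its probes (log2 0.40). Dim genes are limited by the missing background correction: Cxcl9 had a log2 change of 7.24 without and 7.8 with it, and Gbp5 of 3.56 and 4.18.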

Other observations

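Genes that rose together were in places neighbours. In the order of measured genes along the chromosomes, 4 unbroken runs of 4 or more genes called higher were found: Irgm1 to Ifi47 on chromosome 11 (6 genes), Gbp5 to Gbp2 on chromosome 3 (5 genes, with Gbp7, Gbp3 and Gbp2b between them), H2-DMb1, Psmb9, Tap1, Psmb8 and Tap2 on chromosome 17 (5 genes), and Ltb4r1, Adcy4, Ripk3 and Nfatc4 on chromosome 14 (4 genes). The first 3 are families or functional clusters. The run on chromosome 14 joins genes of different function. There were 2 runs of 4 genes called lower, Socs2, Mrpl42, Ube2n and Nudt4 on chromosome 10 and Slc16a6, Arsg, Wipi1 and Prkar1a on chromosome 11. The runs were looked for after the data were seen, and no test was made.

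B cell markers followed the replicate number. All 8 of those above the median on some array were higher in replicate 1 than in replicate 2 in both groups, against 25.4% of the 10118 genes above it. The same order held for 5 of 8 macrophage, 5 of 18 large peritoneal macrophage, 4 of 8 T and NK cell and 2 of 8 mast cell and basophil markers. It held for 1 of 4 neutrophil and eosinophil, 1 of 3 mesothelial and fibroblast and 0 of 3 dendritic cell markers. Fcrla gave 1490 and 833 without and 1120 and 746 with IFNγ, and Cd79a 486 and 339 against 379 and 283. This was noticed after the values were seen and was not tested.

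Probes of a gene did not always give the same call. Of 136 other probes of named genes called, 94 were also called with the same sign and 0 with the opposite sign. Those not called include probes of Adgre1, Fcgr2b and Rps3. In Prdx1, a peroxiredoxin gene, and Ptpn6, the phosphatase gene, a dimmer probe was called and the brightest was not. The bright probe of Prdx1 was at 16344 and 15873 against 16344 and 15814, near the top of the scale, while a dim probe of the same gene was called higher.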
